A study of Danio rerio with 6 samples.

Results

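The genes described here are opn1sw1, which encodes the ultraviolet (UV) cone opsin of zebrafish, and opn1sw2, which encodes the blue cone opsin. They were chosen by name, as the rows of the deposited gene table called opn1sw1 and opn1sw2, and are 2 of its 14781 genes. Eye RNA was sequenced from 6 zebrafish larvae, each 5 days old after fertilization, 3 of them homozygous for the stl888 allele of samd7 (samd7-/-) and 3 wild type (WT). All 6 larvae were offspring of samd7 heterozygotes, 1 larva made 1 library, and the labels do not describe the lesion of the single mutant allele. The study asks how samd7, a SAM domain gene of the Polycomb group that is active in photoreceptors, keeps photoreceptor types and their opsins apart.

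An opsin is a membrane protein that binds a vitamin A derivative and starts the response of a photoreceptor to light. The type of opsin a cone makes sets the wavelengths it absorbs, and each zebrafish cone normally makes opsin of 1 class, UV, blue, green or red. UV and blue cones share an arrestin, arr3b, which switches off the activated opsin, while red and green cones use arr3a. The T-box factors tbx2a and tbx2b act in UV cone fate and the forkhead factor foxq2 in blue cone fate in zebrafish.

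The samd7-/- libraries held 23185755 to 23550042 reads assigned to genes and the WT libraries 23387568 to 26672265. The lists of lens, pigment epithelium and photoreceptor markers each had reads in every library, as the eye label implies, though not every member did. The lens marker cryaba had 0 reads in all samd7-/- libraries and in WT 1, and the green opsin opn1mw1 had 0 in samd7-/- 1. All 13 lens markers were in the table. Their summed share of reads was 5.55 to 8.43% in samd7-/- and 6.30 to 11.3% in WT, ranges that overlap. With limma 0 of the 12 tested passed, where 0.301% of all tested genes did. The 12 had a median log2 fold change of −0.51, and 0 of them had a positive one. Of the 12, 1 (lim2.4, lower in samd7-/-) did not overlap between genotypes, where 13.1% of all tested genes did not. The samd7 transcript itself stood at 4691, 4070 and 4479 normalized counts in samd7-/-, against 1813, 1587 and 1931 in WT. It rose by 1.31 on the log2 scale (SE 0.12, limma, adjusted p = 0.0049), and since the lesion is not described, its level is no check of the genotypes. Each library has 1 size factor, and a normalized count is the number of reads over that factor. Values of different genes are not corrected for transcript length, so each ratio between genes below is compared only with the same ratio in the other genotype.

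UV opsin reads were higher in every mutant larva. opn1sw1 had 1628808, 1467655 and 1642313 normalized counts in samd7-/-, against 1263260, 971743 and 781648 in WT. The lowest samd7-/- larva stood above the highest WT larva, WT 1, so the genotypes did not overlap. The means were 1579592 ± 97175 in samd7-/- and 1005550 ± 242579 in WT (SD, n = 3 each), a ratio of 1.57. Bulk eyes do not show which cells, or how many, made these reads. A larger number of UV cones, more opsin RNA per cone and opsin RNA in other cells cannot be told apart.

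Blue opsin reads were higher by a larger factor. opn1sw2 had 375166, 401960 and 443925 normalized counts in samd7-/-, against 264266, 214539 and 174695 in WT. Again no samd7-/- larva came as low as any WT larva. The means were 407017 ± 34657 in samd7-/- and 217833 ± 44876 in WT (SD, n = 3 each), a ratio of 1.87. Here too, bulk eyes do not show which cells, or how many, made the reads.

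**Figure D1:**
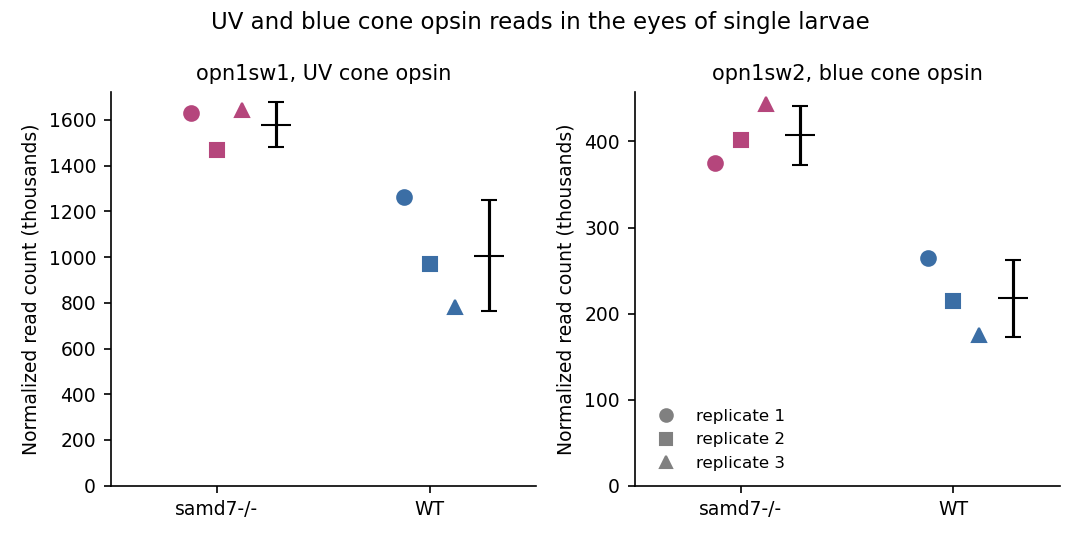
Normalized read counts (axis in units of 1000) of opn1sw1 (left) and opn1sw2 (right) in each samd7-/- and WT larva. Symbols stand for replicate numbers, black bars for mean ± SD over 3 larvae, and in both panels the lowest samd7-/- point lies above the highest WT point.

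Neither difference passed a test over all genes with limma on log2(value + 1). The log2 fold change of opn1sw1, samd7-/- over WT, was 0.68 (SE 0.27, 95% interval 0.06 to 1.30, adjusted p = 0.747, unadjusted p = 0.0356). That of opn1sw2 was 0.92 (SE 0.21, 95% interval 0.44 to 1.39, adjusted p = 0.303, unadjusted p = 0.002). Of the 11959 genes tested, 0.301% passed an adjusted p of 0.05 in either direction and 0.0418% rose, while 6.33% had an unadjusted p under 0.05, as both opsins had. Every samd7-/- library lay above every WT library, as for both opsins, in 6.66% of genes, and the libraries did not overlap in either direction in 13.1%. With DESeq2 on the recovered reads, opn1sw2 rose (log2 0.90, SE 0.18, adjusted p = 0.000134) and opn1sw1 did not pass (log2 0.65, SE 0.19, adjusted p = 0.0745). DESeq2 called 0.679% of genes in either direction and 0.181% higher. The authors' deposited table gives 0.90 for opn1sw2 (adjusted p = 0.000134) and 0.65 for opn1sw1 (adjusted p = 0.0745). edgeR, which called 0.284% of genes, passed neither (adjusted p = 0.145 for opn1sw2 and 0.501 for opn1sw1).

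The spread between larvae was wider in WT for both opsins. The coefficient of variation over 3 larvae was 6.15% in samd7-/- and 24.1% in WT for opn1sw1, and 8.51% in samd7-/- and 20.6% in WT for opn1sw2. WT 1 had the highest value of both genes in WT, and also of opn1mw1, a green cone opsin, and of opn1lw2, a red one. The summed lens markers were lowest in WT 1 among the WT libraries, at 6.30% of reads against 11.3% in WT 2 and 9.67% in WT 3, and their part in these differences was not tested. After scaling each library to its total without the lens markers, the log2 fold change was 0.76 for opn1sw1 (limma, adjusted p = 0.492) and 1.0 for opn1sw2 (limma, adjusted p = 0.0846), both larger than with the deposited size factors. Such scaling shifts all genes of a library alike, and the median log2 fold change over all tested genes was then 0.083. With the lens markers kept in the total, the values were larger still, at 0.80 for opn1sw1 and 1.04 for opn1sw2.

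A large part of all reads came from these 2 genes. opn1sw1 took 7.04, 6.24 and 7.24% of the reads in samd7-/- and 4.95, 3.74 and 3.27% in WT. opn1sw2 took 1.62, 1.71 and 1.96% in samd7-/- and 1.04, 0.826 and 0.732% in WT. Together they took 7.95 to 9.20% of the reads in samd7-/- and 4.01 to 5.99% in WT. The 95% Wilson intervals of these shares were at most 0.011 points wide to either side, and cover counting error only.

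Blue opsin made up more of the pair in the mutants. There were 0.230, 0.274 and 0.270 opn1sw2 reads per opn1sw1 read in samd7-/-, against 0.209, 0.221 and 0.223 in WT. The closest larvae were samd7-/- 1 and WT 3, and the genotypes did not overlap. The log2 ratio was −1.96 ± 0.14 in samd7-/- and −2.20 ± 0.05 in WT (SD, n = 3 each), a difference of 0.24, or a factor of 1.18. The two-sided exact permutation p was 0.1, below which no comparison of 3 with 3 larvae can go. Among 11 ratios and shares adjusted together, the 9 whose genotypes did not overlap each had this exact p of 0.1. With Benjamini-Hochberg adjustment it was 0.122 for each. Some of the 11 were chosen after the values were seen. Further ratios, shares and sums were tested in the same way without adjustment. The ratio of opn1sw2 to opn1sw1 does not depend on how the libraries are scaled. Between 0.20 and 0.32 (log2) of its difference remained with any 1 library left out.

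Within the cone opsin reads, both genes took a larger share in the mutants. The UV opsin share was 73.2, 70.0 and 71.1% in samd7-/- and 55.0, 55.3 and 55.0% in WT. The WT shares lay within 1 point of each other although their counts did not. The blue opsin share was 16.9, 19.2 and 19.2% in samd7-/- and 11.5, 12.2 and 12.3% in WT. The Wilson intervals were at most 0.078 points wide to either side. A share also depends on the other members of the total, and the green opsin opn1mw1 had 0 to 1.96 normalized counts in samd7-/-, against 401000, 324035 and 221550 in WT. Taken over the UV, blue and red opsins alone, the UV share was 73.2, 70.0 and 71.1% in samd7-/- and 66.8, 67.9 and 65.4% in WT. The blue share of the same total was 16.9, 19.2 and 19.2% in samd7-/- and 14.0, 15.0 and 14.6% in WT. Neither overlapped, and the mean differences were 4.74 points for UV and 3.89 points for blue opsin, against 16.3 and 6.41 points with green opsin in the total.

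**Figure D2:**
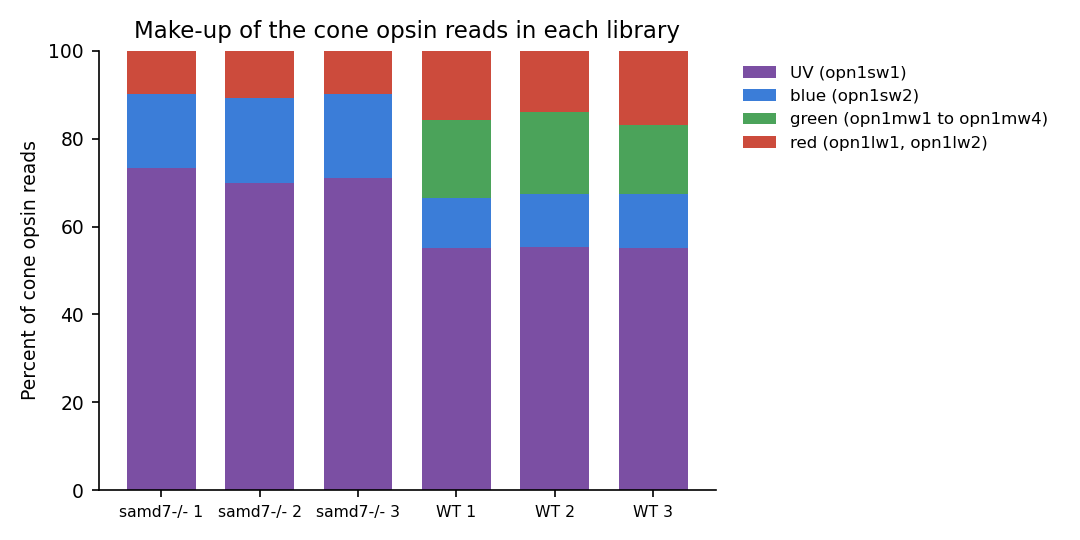
Percent of cone opsin reads taken by the UV, blue, green and red opsins in each library, as stacked bars that reach 100%. UV opsin takes 70.0 to 73.2% in samd7-/- and 55.0 to 55.3% in WT, and the green part is too thin to see in samd7-/-.

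Counted in reads and not per length, UV and blue opsin together were higher by more normalized counts than the other cone opsins were lower. Their sum was 2003974, 1869615 and 2086237 normalized counts in samd7-/-, against 1527527, 1186281 and 956344 in WT, a difference of means of 763225. The other 6 cone opsins together had 219840, 227612 and 224970 in samd7-/- and 769108, 571816 and 463658 in WT, a difference of −377386. The sum of all 8 was 2210750 ± 107586 in samd7-/- and 1824911 ± 442119 in WT (SD, n = 3 each), where samd7-/- 1 and samd7-/- 2 lay below WT 1 (exact permutation p = 0.3, two-sided).

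The opsin differences were smaller than that of arr3b, the arrestin described above for UV and blue cones. Which cones made the arr3b reads in samd7-/- was not tested, so the ratios below may cover different cells in the 2 genotypes. arr3b had 383126, 375321 and 393177 normalized counts in samd7-/-, against 138410, 158948 and 128212 in WT. It rose by 1.44 on the log2 scale (SE 0.17, limma, adjusted p = 0.0147). There were 4.25, 3.91 and 4.18 opn1sw1 reads per arr3b read in samd7-/-, against 9.13, 6.11 and 6.10 in WT. All mutant values were thus below all WT values, with WT 1 apart from the other WT larvae. The difference in log2 ratio was −0.76 (exact permutation p = 0.1, two-sided), and −0.57 without WT 1. For blue opsin there were 0.979, 1.07 and 1.13 reads per arr3b read in samd7-/-, against 1.91, 1.35 and 1.36 in WT, a difference of −0.52 (exact permutation p = 0.1, two-sided), and −0.36 without WT 1.

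Against the sum of 4 genes that all cone types use, both opsins stood higher, but not against each of the 4 alone. The sum was the summed reads of gnat2 (cone transducin), pde6c (cone phosphodiesterase), grk7a (a cone opsin kinase) and gnb3b (a transducin beta subunit). There were 4.33, 4.73 and 4.29 opn1sw1 reads per read of this sum in samd7-/-, against 3.84, 3.17 and 2.93 in WT, a log2 difference of 0.43. For opn1sw2 there were 0.997, 1.29 and 1.16 in samd7-/-, against 0.803, 0.701 and 0.654 in WT, a log2 difference of 0.67. Neither ratio overlapped between genotypes (exact permutation p = 0.1 for each, two-sided). Among the 4 genes pde6c itself stood apart, at 33353, 24457 and 31388 normalized counts in samd7-/-, against 16228, 20849 and 20835 in WT (log2 0.62, limma, adjusted p = 0.523). There were 48.8, 60.0 and 52.3 opn1sw1 reads per pde6c read in samd7-/-, against 77.8, 46.6 and 37.5 in WT, which overlapped (log2 difference 0.06, exact permutation p = 0.8, two-sided). The opn1sw2 reads per pde6c read overlapped too, at 11.2, 16.4 and 14.1 in samd7-/- and 16.3, 10.3 and 8.38 in WT (log2 difference 0.30, exact permutation p = 0.4, two-sided). Against grk7a alone opn1sw1 overlapped as well (log2 difference 0.50, exact permutation p = 0.3, two-sided), while the other 5 single-gene ratios did not overlap, with log2 differences of 0.43 to 0.74. These single-gene ratios were added after the values were seen.

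Set beside tbx2a for UV and foxq2 for blue cones, the opsins did not separate the genotypes. These ratios were chosen after the values were seen. The ratio of opn1sw1 to tbx2b, the other UV cone factor named above, was not taken. The limma log2 fold change of tbx2b was 0.35, against 0.68 for opn1sw1. There were 243, 230 and 220 opn1sw1 reads per tbx2a read in samd7-/-, against 353, 228 and 209 in WT (log2 difference −0.15, exact permutation p = 0.9, two-sided). The direction of that difference rested on WT 1, without which it was 0.08. There were 326, 327 and 360 opn1sw2 reads per foxq2 read in samd7-/-, against 348, 384 and 298 in WT (log2 difference −0.02, exact permutation p = 1, two-sided). This small difference changed sign without samd7-/- 1 (0.0063), samd7-/- 2 (0.0034) or WT 2 (0.07).

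**Figure D3:**
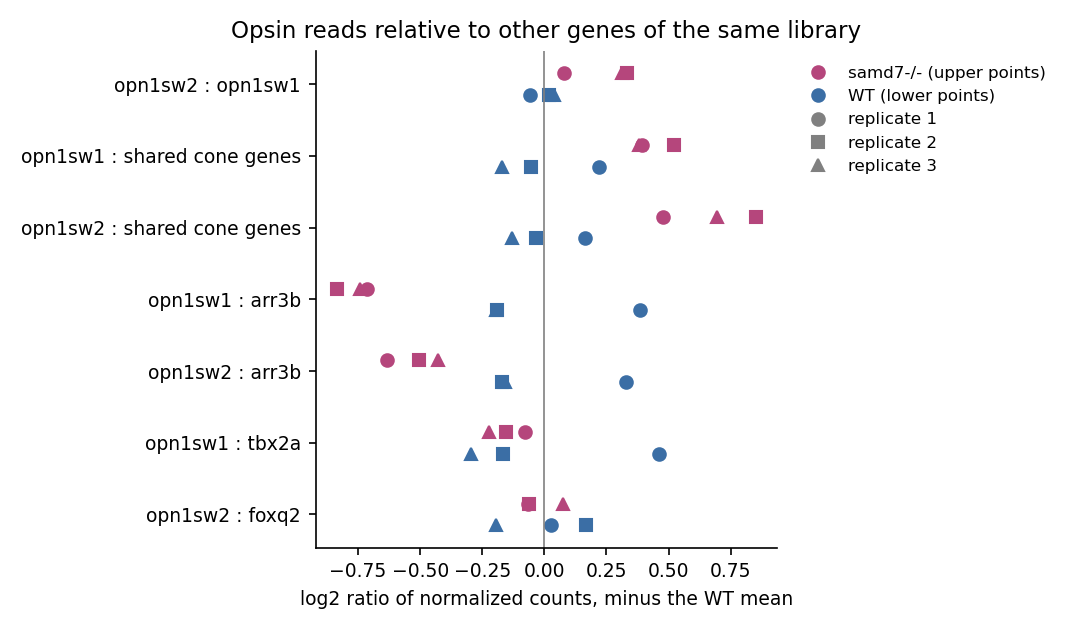
Log2 ratios of opn1sw1 or opn1sw2 to other genes of the same library, minus the WT mean of that ratio, with samd7-/- points above WT points in each row. Both opsins lie right of WT against the summed shared cone genes, left of WT against arr3b, and overlap WT against tbx2a and foxq2.

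Among the genes known for UV and blue cones, the opsins were 2 of 6 with a positive fold change. Over all tested genes, 5987 of 11959 had one. The list includes both opsins and was chosen with earlier results of these data known. Of its 7 genes, all tested, arr3b and tbx2a rose (2), 0 went lower and 5 missed the threshold, where 0.0418% of all tested genes rose. The median log2 fold change of the 7 was 0.83, against 0.00 over all tested genes. In 6 of the 7 no samd7-/- library was as low as any WT library, which held for 6.66% of all tested genes. tbx2a had 6707, 6378 and 7480 normalized counts in samd7-/-, against 3583, 4260 and 3746 in WT (log2 0.83, SE 0.12, limma, adjusted p = 0.0332). foxq2 had 1150, 1228 and 1234 in samd7-/-, against 759, 559 and 585 in WT (log2 0.94, limma, adjusted p = 0.055). tbx2b had 5113, 4635 and 5007 in samd7-/-, against 3682, 3760 and 4125 in WT (log2 0.35, limma, adjusted p = 0.613). gdf6a, a BMP ligand that acts in cone subtype formation in zebrafish, had 114, 145 and 95.8 in samd7-/- and 105, 136 and 112 in WT, and the ranges overlapped. DESeq2 called 4 of the 7 higher (arr3b, tbx2a, foxq2 and opn1sw2), where it called 0.181% of all genes higher. edgeR called 1 of the 7 higher (arr3b), where it called 0.0335% of all genes higher. With limma the number that rose was 1 without samd7-/- 2 (arr3b) or without WT 1 (foxq2), and 0 without samd7-/- 1, samd7-/- 3, WT 2 or WT 3.

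The homeobox factors six6a, six6b and six7, of which zebrafish need six6b and six7 for blue and green opsin expression, showed no common direction. six6a had 838, 860 and 915 normalized counts in samd7-/-, against 782, 626 and 536 in WT (log2 0.44, limma, adjusted p = 0.683), without overlap. six6b stood at 3266 ± 532 in samd7-/- and 3185 ± 669 in WT, and six7 at 5529 ± 708 in samd7-/- and 6610 ± 805 in WT (SD, n = 3 each), with log2 fold changes of 0.05 for six6b and −0.26 for six7. With limma 0.301% of all tested genes passed in either direction. Of 17 tested regulators of photoreceptor genes out of 18 listed, 2 rose (tbx2a and samd7 itself), 1 fell (nr2e3, a rod factor, log2 −1.52, limma, adjusted p = 0.00789) and 14 did not pass, with a median log2 fold change of 0.08. Among those 14, otx5, a homeobox factor related to crx, stood at 8908 ± 534 in samd7-/- and 6749 ± 184 in WT (SD, n = 3 each; log2 0.40, limma, adjusted p = 0.484), and crx had a log2 fold change of −0.13. thrb, the thyroid hormone receptor of red cones, had one of 0.15, and rxrga, neurod1, rx1, rx2 and prdm1a lay between −0.06 and 0.13.

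**Figure D4:**
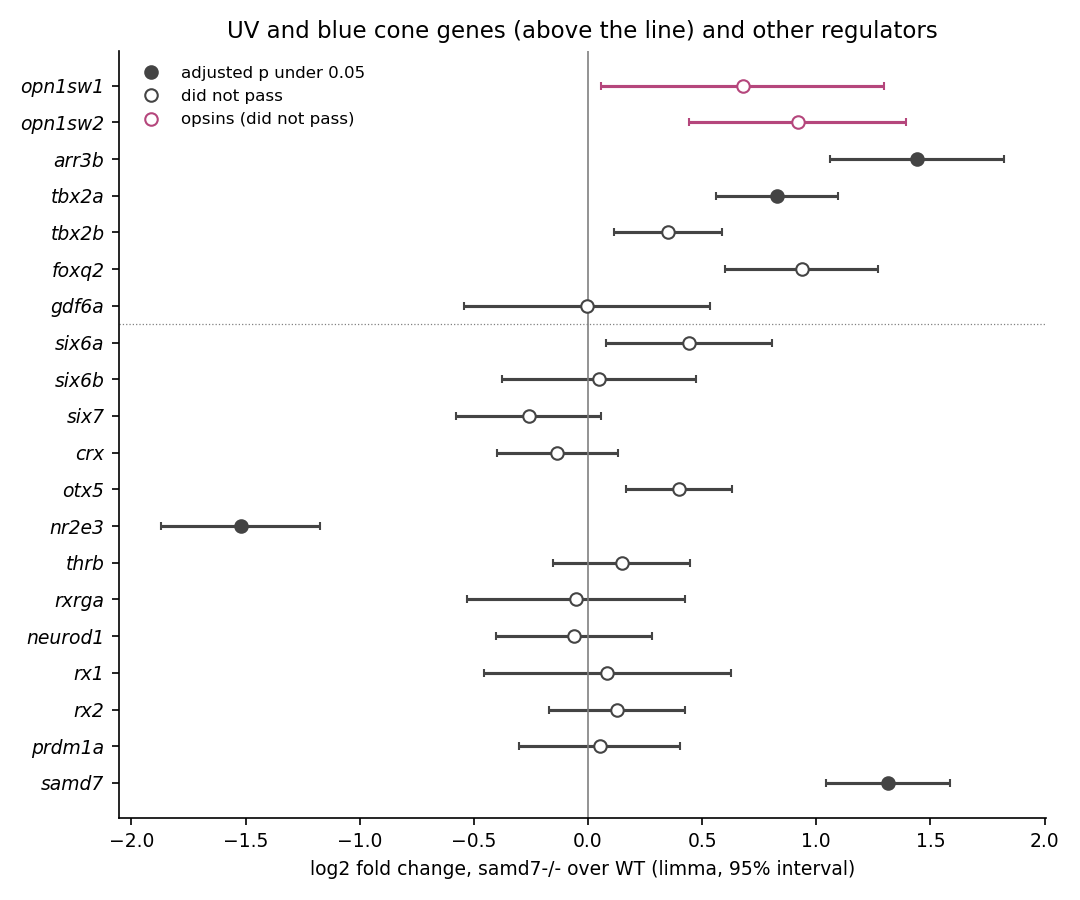
Log2 fold changes, samd7-/- over WT, with 95% limma intervals for the UV and blue cone genes (above the dotted line) and the other listed regulators. Filled points passed an adjusted p of 0.05, which arr3b, tbx2a, samd7 and nr2e3 did, while both opsins lie right of 0 without passing.

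The genes beside the opsins did not share 1 direction. Neighbours were taken among protein-coding genes with values in these data, so others may lie between. In the RefSeq annotation of GRCz12tu, opn1sw2 lies next to the red opsins opn1lw1 and opn1lw2, and neither UV nor blue opsin is on the chromosome of samd7. opn1lw1 had 1096, 2528 and 672 normalized counts in samd7-/-, against 263, 171 and 231 in WT (log2 2.49, SE 0.42, limma, adjusted p = 0.0863), and it rose with DESeq2 (log2 2.69, adjusted p = 0.00119). opn1lw2 had 218678, 225057 and 224251 in samd7-/-, against 363823, 245108 and 238605 in WT (log2 −0.32, limma, adjusted p = 0.826). Thus opn1lw1 was above and opn1lw2 below WT in all mutants. There were 1.72, 1.79 and 1.98 opn1sw2 reads per opn1lw2 read in samd7-/-, against 0.726, 0.875 and 0.732 in WT, a log2 difference of 1.23. For opn1sw1 per opn1lw2 it was 0.99 (exact permutation p = 0.1 for each, two-sided, chosen after the values were seen). On its other side opn1sw2 neighbours hcfc1a, a transcriptional coregulator, at 2451 ± 203 in samd7-/- and 1925 ± 460 in WT (log2 0.38, limma, adjusted p = 0.791). The genes either side of opn1sw1, calua and tnpo3, had log2 fold changes of 0.02 and 0.12 (limma, adjusted p = 0.985 and 0.922). Next beyond these, mdm1 and irf5 had −0.20 and −0.11 (limma, adjusted p = 0.860 and 0.964). Beyond hcfc1a, si:dkey-13a21.4 had 0.21 (limma, adjusted p = 0.951).

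Among genes with a mean of at least 1000, the profile most like both opsins was that of atp6v0b, a subunit of the proton pump of acidic compartments. Likeness was the root mean square difference over the 6 libraries of log2(value + 1), each gene centred on its own mean. It was taken among 3029 tested genes with such a mean that are not visual opsins. The blue cone factor foxq2 fell below this mean and was not ranked. atp6v0b differed by 0.11 from opn1sw1 and by 0.14 from opn1sw2, about as little as the opsins differed from each other (0.15). It had 7218, 6962 and 6945 normalized counts in samd7-/-, against 4866, 4006 and 3738 in WT (log2 0.75, limma, adjusted p = 0.0673). Next for opn1sw1 were col1a1a, a collagen chain (0.14), and cahz, a carbonic anhydrase (0.15). Next for opn1sw2 were tbx2a (0.22) and col1a1a (0.25). For opn1sw1, tbx2a came 29th (0.25) and gnat2 34th (0.26), while gnat2 came 82nd for opn1sw2 (0.37). arr3b came 21st for opn1sw2 (0.31) and 1629th for opn1sw1 (0.43). The measure counts the size of a change as well as its direction, and arr3b was higher by more (log2 1.44) than either opsin.

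Most other genes of the cone light response did not pass. Over all 11959 tested genes, 5 rose and 31 fell with limma, together 0.301%. Of 28 listed cone phototransduction genes, 22 were in the table and tested, of which 1 rose (arr3b), 2 fell (arr3a and rgs9b, a regulator that switches transducin off) and 19 did not pass, with a median log2 fold change of 0.15. DESeq2 called 1 higher and 4 lower, adding pde6h, a phosphodiesterase subunit (log2 −1.04, adjusted p = 3.23e-05), and zgc:73075, listed as rcvrn3, a recoverin (log2 −0.82, adjusted p = 0.000537), both without overlap. arr3a had 1059, 855 and 1048 normalized counts in samd7-/-, against 144048, 116456 and 92408 in WT (log2 −6.88, SE 0.17, limma, adjusted p = 5.85e-07). The 6 markers of red and green cones, all in the table, summed to 221565 to 229051 normalized counts in samd7-/- and 556642 to 913759 in WT, and 3 of the 6 fell (opn1mw1, opn1mw2 and arr3a). Of the other 3, opn1lw2 lay below WT and opn1lw1 above WT in every mutant, and thrb overlapped. The 7 of 8 rod markers in the table summed to 42584 to 98709 in samd7-/- and 306259 to 414168 in WT, and 6 of the 7 fell. Of 6 tested visual opsins other than the pair, out of 8 listed, 0 rose and 4 fell with limma, while DESeq2 called 1 higher (opn1lw1) and 4 lower. The part of these markers in the opsin values was not tested.

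Across 21 other settings the fold changes of both opsins were positive, though for many of them the direction was fixed beforehand. The replicate block, no filter, a minimum of 50, robust moderation and no trend left both estimates as in the main setting. With 1 library left out the genotypes still did not overlap, so the sign could not change. For opn1sw1 they ran from 0.35 with quantile normalization to 0.86 without WT 1, and 0 settings passed. For opn1sw2 they ran from 0.67 with scaling to the shared cone genes to 1.39 with quantile normalization (adjusted p = 0.0474), and 3 settings passed. Of these, DESeq2 and the authors' deposited table gave the same result (log2 0.90, DESeq2, adjusted p = 0.000134). Quantile normalization sets a value by the gene's place within its library alone. By normalized count, opn1sw1 held place 1 in every library but WT 2, where it held place 2. The places of opn1sw2 were 4, 4 and 2 in samd7-/- and 9, 16 and 18 in WT. The fold changes under quantile normalization thus show these places and do not measure the difference in counts.

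**Figure D5:**
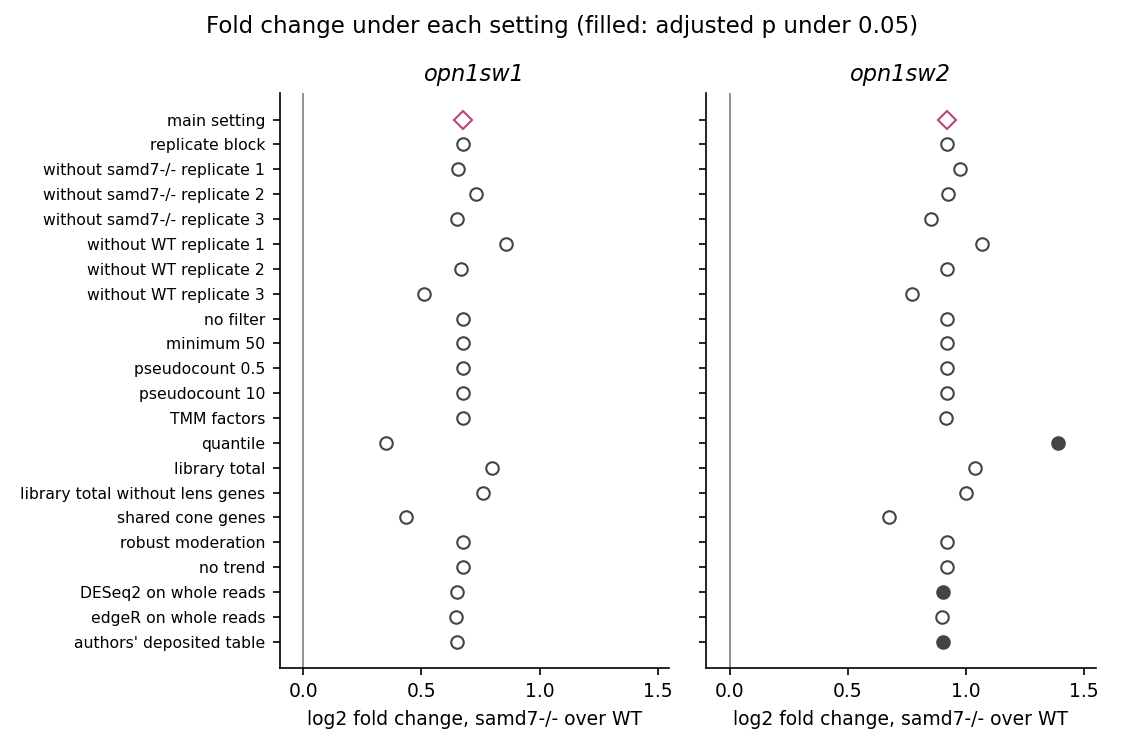
Log2 fold change of opn1sw1 (left) and opn1sw2 (right), samd7-/- over WT, in the main setting (diamond) and 21 other settings. All points lie right of 0, and the filled ones, with an adjusted p under 0.05, are opn1sw2 with quantile normalization, with DESeq2 and in the authors' deposited table.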

How the data were processed

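Per the labels, 10 ng of total RNA from the eyes of 1 larva was amplified with the SMARTer Ultra Low kit, 12 cycles for cDNA and 12 for the library, and sequenced as 150 bp pairs; strand is not stated to be kept. The submitters' processing notes name build danRer10, R 4.1.3, DESeq2 1.34.0, Trim Galore 0.6.1, HTSeq 0.9.1 and STAR 2.7.2b. The gene annotation was not named there. Each deposited signal per gene and library is a read count divided by 1 size factor, as the values show: all (100%) were whole multiples, within 0.01, of 1 value per library. The log2 fold change and adjusted p-value the authors deposited serve as an alternative. For samd7-/- 2 the worth of 1 read lies near 1, so recovery there rests on the multiples alone.

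The main test was limma 3.58.1 (R 4.3.3) with a variance trend on log2(value + 1), 2-sided, on genes reaching 10 in 3 or more libraries, adjusted by Benjamini-Hochberg, threshold 0.05. DESeq2 1.42.0 and edgeR 4.0.16 (quasi-likelihood) ran on recovered reads. Ratios and shares were compared by exact permutation. The main limma fit, DESeq2 and edgeR were tried on simulated data, and the other settings and the permutation test were not. Levels were planned per kilobase of coding length, but counts as they are were used. Genes were named by rule: both opsins, samd7, the UV and blue cone and regulator lists, the opsins in the totals, up to 2 members of other lists, and the 3 nearest profiles; neighbours, rods, sums, pde6c, pde6h and zgc:73075 were added after their values were seen. The genes and lists were chosen with earlier results of these data known. For rcvrn2, rcvrn3, rbp3 and gja8b a RefSeq synonym gave the table's gene. RefSeq also gives opn1sw2 as an old name of opn1sw1; the table's own names were used. Markers of bipolar cells, Muller glia, muscle, skin, pineal and dividing cells were also summed.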

Additional observations from a re-analysis of the deposited data

How the results depend on the processing

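With 3 larvae per genotype the exact tests cannot go below 0.1, and read depth does not limit the opsin values. With 1 library left out the limma log2 fold change of opn1sw1 ranged from 0.51 to 0.86 and that of opn1sw2 from 0.77 to 1.07. opn1sw2 passed with quantile normalization (1.39, which shows only its place in each library), DESeq2 (0.90) and in the authors' deposited table (0.90, the same result as DESeq2). The cause was not tested. The number of UV and blue cone genes that rose, 2, was 0 to 1 with 1 library left out, 1 with the shared cone genes as scale, without a variance trend, or with edgeR, and 4 with DESeq2 or in the authors' deposited table. Scaling to library totals moved the median of all genes by 0.12 and scaling to the shared cone genes by −0.24. Such scaling shifts all genes alike, so the distance of both opsins from that median was all but fixed beforehand. With 1 library left out, the ratio of opn1sw1 to tbx2a differed by −0.30 to 0.08 between genotypes. That of opn1sw2 to foxq2 differed by −0.12 to 0.07, so both changed sign. The difference for opn1sw1 to tbx2a was 0.0801 without WT 1. For opn1sw2 to foxq2 it was 0.0659 without WT 2, 0.0063 without samd7-/- 1 and 0.0034 without samd7-/- 2. The other 9 ratios and shares could not change sign in this way, since their genotypes did not overlap. With 1 of the 4 shared cone genes in place of their sum, the log2 differences were 0.06 to 0.50 for opn1sw1 and 0.30 to 0.74 for opn1sw2, lowest against pde6c.

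The replicate numbers showed no clear pairing of the larvae. Deviations of same-numbered libraries correlated at 0.0286, 0.183 and −0.0024, and those of libraries with different numbers at −0.159 to 0.145. So few libraries cannot exclude a pairing. With the number as a block the fold changes stayed at 0.68 and 0.92 (adjusted p = 0.671 and 0.362) and 1 UV and blue cone gene rose. Over all genes limma called 36 in the main setting, 33 with the block, 6 to 27 with 1 library left out and 10 without a trend, while DESeq2 called 90. The mean difference of same-numbered larvae equals the difference of group means, so the ratio differences could not change under the block. A test that flipped the signs of the same-numbered differences gave p no lower than 0.25, the lowest it can reach. The alternative of counts in place of counts per kilobase was not run, since the main values were counts.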

Other observations

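Genes that supply and recycle the vitamin A chromophore of opsins showed no call in either direction. Of 21 listed, 19 were in the table and tested, and 0 passed with limma, DESeq2 or edgeR (1 at an unadjusted p under 0.05), with a median log2 fold change of −0.10. With limma 0.301% of all tested genes passed and 6.33% had an unadjusted p under 0.05. The member with the smallest p was rdh10a, a retinol dehydrogenase, at 1539 ± 106 normalized counts in samd7-/- and 1264 ± 60.8 in WT (SD, n = 3 each; log2 0.28, limma, adjusted p = 0.74). rdh8b, a dehydrogenase of photoreceptors, stood at 2904 ± 350 in samd7-/- and 2296 ± 377 in WT (SD, n = 3 each; log2 0.34, limma, adjusted p = 0.779).

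Markers of other cells in the eye samples were summed for the same libraries. Bipolar markers took 0.103 to 0.130% of reads in samd7-/- and 0.0922 to 0.102% in WT. Muller glia markers took 0.645 to 0.822% in samd7-/- and 0.593 to 0.694% in WT. Pigment epithelium markers took 0.261 to 0.910% in samd7-/- and 0.312 to 0.832% in WT. Skin markers took 1.06 to 1.19% in samd7-/- and 1.14 to 1.20% in WT, and muscle markers 0.0459 to 0.122% in samd7-/- and 0.0588 to 0.137% in WT. Markers of the pineal organ took 0.00945 to 0.0145% in samd7-/- and 0.0122 to 0.0154% in WT, and those of dividing cells 0.0559 to 0.0736% in samd7-/- and 0.0470 to 0.0582% in WT. Of these lists 1 pineal marker rose (exorh, an opsin of the pineal, log2 3.19, limma, adjusted p = 0.0155). Another fell (aanat2, an enzyme of melatonin synthesis, log2 −1.98, limma, adjusted p = 0.00332), and 0 members of the other lists passed. The pineal sum thus joins members that moved in opposite directions. With limma 0.301% of all tested genes passed in either direction, and in 13.1% the libraries did not overlap. Except for the bipolar list, the ranges of these read shares overlapped between genotypes. As sums of normalized counts the bipolar markers overlapped too, at 24124 to 29377 in samd7-/- and 23941 to 25203 in WT. On that scale the skin markers did not, at 250101 to 270780 in samd7-/- and 278827 to 310618 in WT.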
